A study of Mus musculus with 17 samples.

Results

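The genes of protein folding in the endoplasmic reticulum (ER) and of the unfolded protein response were followed by name across 17 mouse RNA-seq libraries. The 36 genes are a list made by role: 11 ER chaperones and their partners, 4 protein disulfide isomerases, 6 stress sensors and transcription factors, 5 outputs of the PERK-ATF4 arm, 6 genes of ER-associated degradation (ERAD) and 4 genes of translocation into the ER. The list was drawn up with earlier results of these data known, so the shares of all genes set beside its counts are descriptive. All 36 were found among the 33840 genes of the intestinal files and among the 24594 identifiers of the liver-labelled files, and all 36 passed the filter on low counts in either set. The study looked at the intestine of mice whose liver had been cut back by hepatectomy, and its title concerns a signal from the liver, PEDF, that acts on intestinal stem cells. All libraries are labelled WT. From the small intestine, sham-operated and hepatectomised mice each gave an intestinal epithelial cell (IEC) fraction and a crypt fraction, with 2 libraries in each of the 4 groups. The other 9 libraries are labelled liver, with treatment DSS (dextran sulfate sodium, a colitis-inducing polymer) at day 0, day 10 and day 20, with 3 libraries a day. The labels give no age, no extent of the hepatectomy, no dose of DSS and no time from surgery to sampling. They do not say whether libraries came from separate mice, so p-values measure the spread between libraries, which may be technical.

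Proteins that are secreted or sit in membranes enter the ER through the Sec61 channel, are folded by chaperones and isomerases, and are sent back to the cytosol for destruction by ERAD when folding fails. When unfolded chains pile up, IRE1 splices the Xbp1 mRNA, ATF6 is cut to release a transcription factor, and PERK slows translation while favouring ATF4, whose targets include Ddit3 (CHOP), Trib3 and Asns. Goblet and Paneth cells of the gut and plasma cells carry a large secretory ER, and the epithelium of the gut has an IRE1 of its own, IRE1 beta, encoded by Ern2.

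Promoters are shown because the arms of the response act on known short elements. RefSeq promoter windows (GRCm38.p6, the 250 bases before the annotated start) were at hand for 30 of the 36 genes and were searched on both strands for the ER stress response element ERSE (CCAAT and CCACG with any 9 bases between them), which binds ATF6 and XBP1, for ERSE-II (ATTGG and CCACG with any 1 base between them), for the XBP1 element UPRE (TGACGTGG) and for the ATF4 element CARE (TGATGNAA). An ERSE stood in 9 of the 30 windows, in Hspa5, Hsp90b1, Calr, Canx, Creld2, Dnajc3, Pdia6, Syvn1 and Derl3, against 37 of 32851 promoters in all (0.113%). ERSE-II was found in Herpud1 alone among the genes studied and in 0.0304% of all promoters. CARE was found in Asns, Chac1 and Herpud1, 10% of the windows, against 3.45% of all promoters. UPRE was found in none of the 30 windows and in 0.563% of all promoters. A match describes the letters and does not show that a factor binds there. Of the 30 windows, 12 held any match, and the 6 printed below were picked from those 12. Trib3, P4hb, Sdf2l1 and Edem1, whose changes are described below, had windows with no match. The 6 windows are written 5′ to 3′ on the strand of the gene with each match in capitals: Hspa5 at chr2:34771840-34772089 (plus strand), Hsp90b1 at chr10:86705445-86705694 (minus strand), Pdia6 at chr12:17266339-17266588 (plus strand), Creld2 at chr15:88819396-88819645 (plus strand), Herpud1 at chr8:94386179-94386428 (plus strand) and Asns at chr6:7693210-7693459 (minus strand).
Hspa5: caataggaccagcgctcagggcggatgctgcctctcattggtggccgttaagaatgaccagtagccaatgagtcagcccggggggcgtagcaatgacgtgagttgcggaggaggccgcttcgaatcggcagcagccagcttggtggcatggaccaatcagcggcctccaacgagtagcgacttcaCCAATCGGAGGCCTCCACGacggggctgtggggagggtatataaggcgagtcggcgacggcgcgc
Hsp90b1: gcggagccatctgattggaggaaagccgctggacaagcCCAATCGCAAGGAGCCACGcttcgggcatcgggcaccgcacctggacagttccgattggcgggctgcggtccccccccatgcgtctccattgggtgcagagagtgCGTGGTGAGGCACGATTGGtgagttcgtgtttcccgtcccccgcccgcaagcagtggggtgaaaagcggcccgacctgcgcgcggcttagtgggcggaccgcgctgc
Pdia6: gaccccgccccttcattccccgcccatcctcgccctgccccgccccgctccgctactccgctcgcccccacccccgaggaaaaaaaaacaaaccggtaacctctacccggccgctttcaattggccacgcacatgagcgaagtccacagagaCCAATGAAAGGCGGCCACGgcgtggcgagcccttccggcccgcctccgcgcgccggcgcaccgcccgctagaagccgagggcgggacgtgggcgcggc
Creld2: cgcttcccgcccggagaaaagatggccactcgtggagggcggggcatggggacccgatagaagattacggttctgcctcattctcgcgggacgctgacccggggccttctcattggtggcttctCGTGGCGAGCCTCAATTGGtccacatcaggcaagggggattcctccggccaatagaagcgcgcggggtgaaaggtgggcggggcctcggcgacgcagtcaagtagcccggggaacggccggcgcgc
Herpud1: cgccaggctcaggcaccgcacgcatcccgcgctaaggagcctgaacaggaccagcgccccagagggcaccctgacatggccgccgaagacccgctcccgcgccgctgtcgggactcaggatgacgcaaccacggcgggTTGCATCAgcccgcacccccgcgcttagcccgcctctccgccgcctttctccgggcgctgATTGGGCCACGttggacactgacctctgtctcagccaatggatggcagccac
Asns: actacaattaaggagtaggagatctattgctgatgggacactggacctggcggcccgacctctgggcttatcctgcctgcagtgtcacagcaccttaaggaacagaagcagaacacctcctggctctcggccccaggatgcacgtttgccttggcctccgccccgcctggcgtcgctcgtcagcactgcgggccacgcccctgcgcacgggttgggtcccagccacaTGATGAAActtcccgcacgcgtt
The window of Hsp90b1 holds 2 ERSE matches, 1 in each orientation, those of Hspa5, Pdia6 and Creld2 hold 1 ERSE each, that of Herpud1 holds a CARE and an ERSE-II, and that of Asns holds a CARE 23 to 16 bases before the start.

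Total counts were 26609786 to 43580050 in the intestinal libraries and 12742629 to 42669857 in the liver-labelled ones. Levels are given as CPM (counts relative to the TMM-scaled library size) and changes as log2 fold change ± SE from edgeR's quasi-likelihood test, which was adjusted over all 18207 intestinal or 16694 liver-labelled genes that were tested and called at an adjusted p under 0.05. In the intestine, proliferation markers were higher in crypts than in IEC of sham mice (15 of 15) and enterocyte markers were lower (20 of 20); 12 of 15 Paneth cell markers were lower in the crypt fraction and none was higher. The file headers give sham and hepatectomy libraries sample names from separate running series, so a difference between runs and the surgery cannot be told apart. The liver label did not match the contents at day 0 and day 10: 15 hepatocyte markers summed to between 1094 and 3927 CPM there, against 136619 to 139924 CPM at day 20, and Olfm4, an intestinal stem cell gene, stood at 2625 to 7184 CPM against 41.3 to 62.0 CPM. These libraries are therefore called by their label and day, and each comparison with day 20 is between libraries of different tissue content. Y-linked Eif2s3y was at 33.9 to 42.4 CPM at day 0, 0.424 to 1.93 CPM at day 10 and 67.0 to 72.1 CPM at day 20, and Xist was at 21.3 to 25.7 CPM, 241 to 566 CPM and 1.40 to 1.95 CPM, so genes that differ between the sexes also differed between the days.

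In crypts, the main folding machinery of the ER was lower after hepatectomy. Of the 36 genes, 19 fell (52.8%, where 18.3% of all genes tested fell) and 5 rose (13.9%, where 19.2% of all genes rose), with a median log2 change of -0.16 against 0.01 over all genes. In IEC, 19 fell as well (18.3% of all genes fell) and 7 rose (19.5% of all genes rose), with a median of -0.23 against 0.02. The changes were small for most genes: of those called, 2 changed at least 2-fold in crypts (8.77% of all genes did) and 3 in IEC (7.86%). Leaving out hepatectomy crypt replicate 2 left 14 falls and 3 rises in crypts, and leaving out sham crypt replicate 1 left 17 and 3. The crypt and IEC comparisons use separate libraries, but the labels do not say whether these came from separate mice. A difference between the sham and hepatectomy runs would enter both comparisons. In both fractions 16 genes fell: Hspa5, Hsp90b1, Calr, Canx, Hyou1, Dnajb11, Dnajc3, Sdf2l1, Creld2, Manf, Pdia3, Pdia4, Pdia6, Ern1, Asns and Ssr1. The share of all genes called in both fractions is not given here. P4hb, Xbp1 and Trib3 rose in both. No gene rose in crypts and fell in IEC, or the reverse. In bulk samples, fewer cells of a type and less RNA per cell cannot be told apart.

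**Figure D1:**
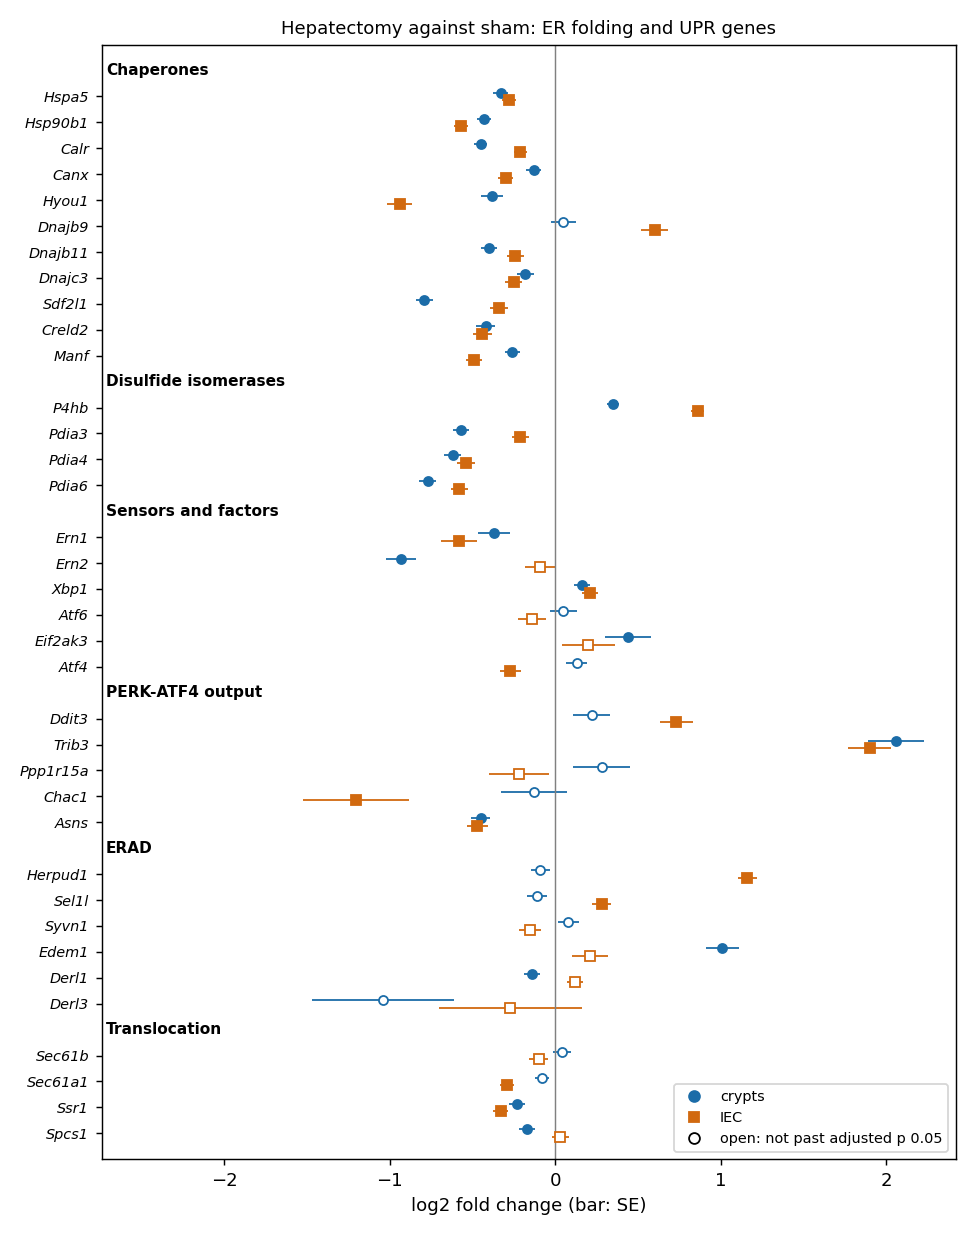
Log2 fold change of hepatectomy against sham for the 36 genes, ordered by role, with circles for crypts and squares for IEC, bars for the SE and filled symbols for genes past an adjusted p of 0.05. Chaperones and disulfide isomerases lie left of 0 except Dnajb9 and P4hb, and Trib3 lies farthest to the right in both fractions, at 2.06 in crypts and 1.90 in IEC.

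Of the 11 chaperones, 10 fell and none rose in crypts (median log2 change -0.38), and 10 fell and 1 rose in IEC (median -0.30). Hspa5 encodes BiP, the main Hsp70 of the ER lumen, and its level in crypts was 635 and 638 CPM in the sham libraries and 505 and 508 CPM after hepatectomy. In IEC it was 541 and 540 CPM against 460 and 429 CPM. Groups did not overlap in either fraction, and the falls were 0.33 ± 0.043 (adjusted p = 9.5e-05) in crypts and 0.28 ± 0.043 (adjusted p = 0.00024) in IEC. Hsp90b1, the ER member of the Hsp90 family, went from 520 and 543 CPM to 389 and 401 CPM in crypts and from 412 and 424 CPM to 282 and 281 CPM in IEC. All hepatectomy libraries of a fraction were below its sham libraries, with falls of 0.43 ± 0.042 (adjusted p = 1e-05) and 0.57 ± 0.043 (adjusted p = 5.6e-07).

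Sdf2l1, a cofactor that keeps ER Hsp40 proteins and BiP working together, had the largest chaperone fall in crypts. It stood at 122 and 117 CPM in sham crypts and at 68.5 and 69.3 CPM after hepatectomy, a fall of 0.79 ± 0.051 (adjusted p = 2.2e-07). In IEC it stood at 84.3 and 82.0 CPM and then at 67.3 and 64.4 CPM, a fall of 0.34 ± 0.052 (adjusted p = 0.00026). The crypt libraries lay above IEC in sham mice and close to IEC after hepatectomy (log2 difference 0.07 ± 0.052, adjusted p = 0.31). Hyou1, the large ER Hsp70 relative that exchanges nucleotide on BiP, had the opposite order. It fell by 0.94 ± 0.073 (adjusted p = 7.7e-07) in IEC, from 47.7 and 51.2 CPM to 27.6 and 24.0 CPM, and by 0.38 ± 0.067 (adjusted p = 0.00095) in crypts, from 62.9 and 64.0 CPM to 49.1 and 48.7 CPM. Dnajb9, an Hsp40 that holds IRE1 in check through BiP, was the chaperone that rose. It went from 19.0 and 19.2 CPM to 29.3 and 28.5 CPM in IEC (0.60 ± 0.079, adjusted p = 7.7e-05), while in crypts it read 17.2 and 19.2 CPM in sham and 18.4 and 19.4 CPM after hepatectomy, with overlapping groups (adjusted p = 0.63).

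The lectin chaperones that hold glycoproteins split in size. Calr, in the lumen, fell by 0.45 ± 0.041 in crypts and by 0.21 ± 0.041 in IEC, and Canx, in the membrane, fell by 0.30 ± 0.045 in IEC and by 0.13 ± 0.045 in crypts. The crypt call of Canx (adjusted p = 0.037) was lost without any of the 4 crypt libraries (adjusted p 0.081 to 0.15) and with DESeq2 (0.16). The other chaperone falls lay between 0.18 and 0.42 in crypts and between 0.24 and 0.49 in IEC: Dnajb11, which delivers chains to BiP, Dnajc3, an Hsp40 that is also an inhibitor of the kinase PERK, Creld2 and Manf. Dnajc3 in crypts (adjusted p = 0.015) was no longer past the threshold without sham crypt replicate 2 (0.13) or hepatectomy crypt replicate 2 (0.074).

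The disulfide isomerases, which form and shuffle disulfide bonds, divided in the same way in crypts and IEC: 3 of 4 fell and P4hb rose (median log2 change -0.60 in crypts and -0.38 in IEC). Pdia6 read 310 and 294 CPM in sham crypts and 174 and 180 CPM after hepatectomy, and 204 and 206 CPM against 143 and 132 CPM in IEC. The groups were well apart, with falls of 0.77 ± 0.052 (adjusted p = 3.4e-07) and 0.58 ± 0.052 (adjusted p = 3e-06). Pdia4 went from 193 and 179 CPM to 119 and 123 CPM in crypts and from 137 and 138 CPM to 96.9 and 92.0 CPM in IEC. Pdia3, the isomerase that works with calreticulin and calnexin, went from 771 and 764 CPM to 504 and 530 CPM in crypts and from 545 and 564 CPM to 500 and 456 CPM in IEC, a smaller fall there. P4hb, the most abundant gene of the 36, encodes an isomerase that is also the small subunit of the microsomal triglyceride transfer protein, which loads lipid onto chylomicrons. It rose from 2162 and 2154 CPM to 3938 and 3874 CPM in IEC (0.86 ± 0.037, adjusted p = 3.7e-09) and from 1363 and 1342 CPM to 1682 and 1754 CPM in crypts (0.35 ± 0.036, adjusted p = 1.7e-05). Mttp, the large subunit of that transfer protein, was at 1146 to 1166 CPM in sham IEC and 2182 to 2247 CPM after hepatectomy, and at 580 to 585 CPM and 908 to 942 CPM in crypts. With P4hb so abundant, the summed level of the 36 genes was higher in IEC after hepatectomy (8106 to 8323 CPM against 7092 to 7127 CPM) although more of them fell than rose.

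**Figure D2:**
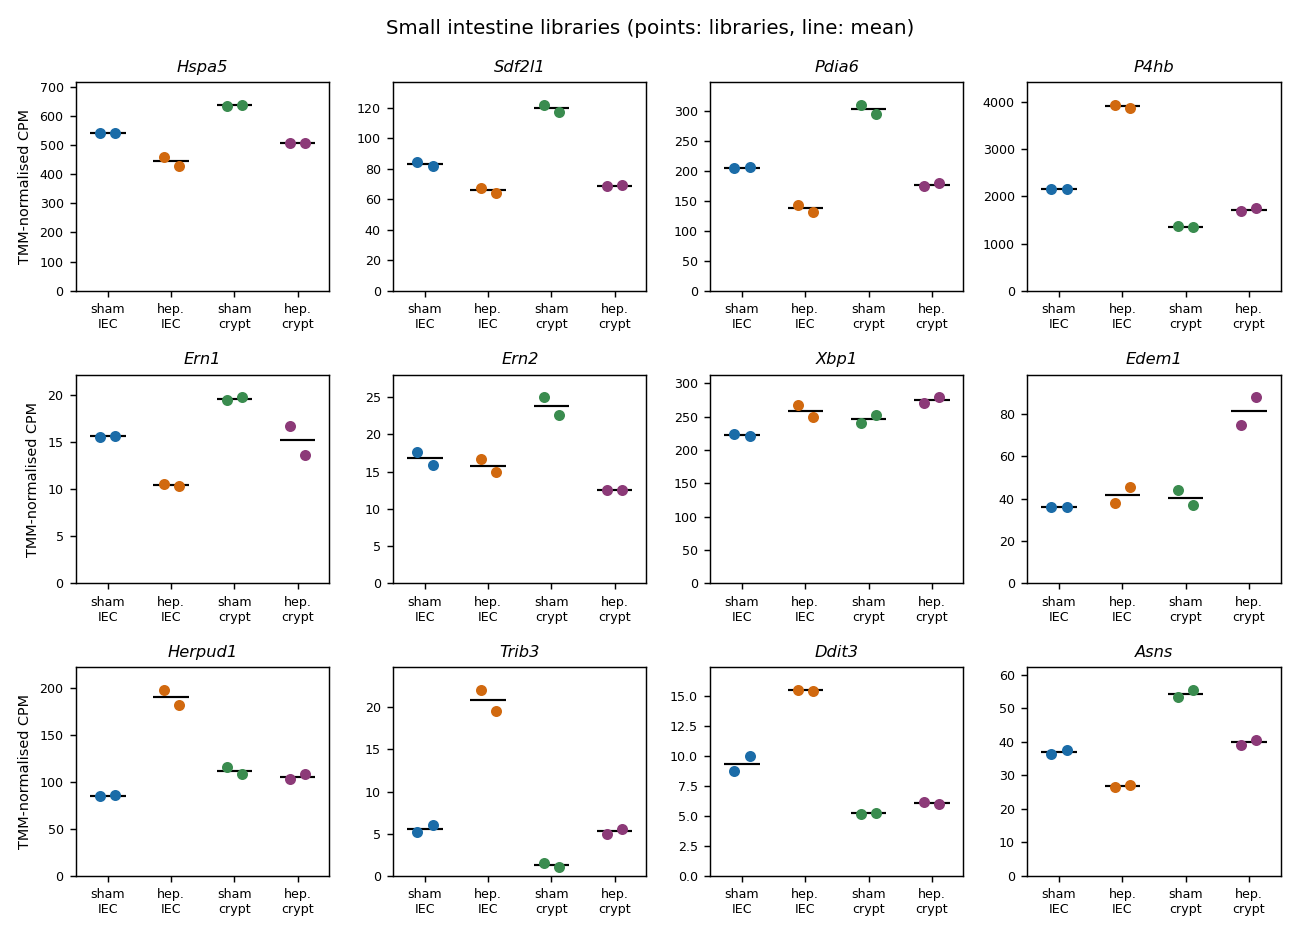
TMM-normalised CPM of 12 of the genes in each of the 8 small intestine libraries, with 1 point for each library, a line at the group mean and linear axes that start at 0. Hspa5, Sdf2l1 and Pdia6 are lower after hepatectomy in both fractions, Ern2 and Edem1 differ in crypts, and Herpud1 and Ddit3 in IEC.

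Of the 6 sensors and factors 2 rose and 2 fell in crypts (median log2 change 0.09), and 1 rose and 2 fell in IEC (median -0.12). Ern2, the epithelial IRE1 beta, fell in crypts from 25 and 22.6 CPM to 12.5 CPM in each library (0.93 ± 0.090, adjusted p = 9e-06), and in IEC it read 17.7 and 15.9 CPM in sham against 16.7 and 14.9 CPM after hepatectomy (log2 change -0.09 ± 0.095, adjusted p = 0.5). The crypt groups were apart and the IEC groups overlapped. Ern1, the IRE1 alpha found in most cells, fell in crypts from 19.5 and 19.8 CPM to 16.7 and 13.7 CPM (0.37 ± 0.095, adjusted p = 0.0085) and in IEC from 15.6 and 15.7 CPM to 10.6 and 10.3 CPM (0.58 ± 0.11, adjusted p = 0.00092). The crypt call of Ern1 was lost without hepatectomy crypt replicate 2 (log2 change -0.24, adjusted p = 0.079) or sham crypt replicate 2 (-0.36, adjusted p = 0.056). The ratio of Ern2 to Ern1 counts was thus 1.29 and 1.14 in sham crypts and 0.746 and 0.912 after hepatectomy, and 1.13 and 1.01 in sham IEC and 1.56 and 1.44 after hepatectomy.

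Xbp1, the factor that IRE1 activates by splicing, was slightly higher. It read 241 and 252 CPM in sham crypts and 271 and 279 CPM after hepatectomy, and 224 and 221 CPM against 267 and 249 CPM in IEC. The rises of 0.16 ± 0.048 (adjusted p = 0.024) and 0.21 ± 0.049 (adjusted p = 0.0046) were smaller than those of most called genes and depended on single libraries: in crypts the adjusted p of Xbp1 rose to 0.18 without sham crypt replicate 1 and 0.13 without hepatectomy crypt replicate 2, and in IEC to 0.056 without sham IEC replicate 2 and 0.064 without hepatectomy IEC replicate 1. Gene counts do not separate spliced from unspliced Xbp1 mRNA. Atf6 did not pass the test in crypts (0.05 ± 0.082, adjusted p = 0.7) or IEC (-0.14 ± 0.085, adjusted p = 0.21). Eif2ak3, which encodes PERK, was at 9.08 and 11.3 CPM in sham crypts and 13.0 and 14.6 CPM after hepatectomy (0.44 ± 0.14, adjusted p = 0.025), a call lost without sham crypt replicate 1 (0.18) or hepatectomy crypt replicate 2 (0.14). Its exons overlap another gene by 485 bases, and the strand used in counting is not stated, so its counts are uncertain.

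Atf4, the factor downstream of PERK, is controlled mostly at translation, and its mRNA read 106 CPM in each sham IEC library and 81.8 and 94.5 CPM after hepatectomy, a fall of 0.27 ± 0.064 (adjusted p = 0.0054). In crypts Atf4 was at 119 and 118 CPM and then 132 and 126 CPM (0.13 ± 0.063, adjusted p = 0.14). Of the 5 outputs of the arm 1 rose and 1 fell in crypts, and 2 rose and 2 fell in IEC. Trib3, a pseudokinase that ATF4 and CHOP induce, had the largest change of all 36 genes. It went from 1.5 and 1.1 CPM to 5.02 and 5.61 CPM in crypts (2.06 ± 0.17, adjusted p = 2.3e-06) and from 5.19 and 5.98 CPM to 22.1 and 19.6 CPM in IEC (1.90 ± 0.13, adjusted p = 2.6e-07). Ddit3, the stress-induced factor CHOP, rose in IEC from 8.73 and 9.94 CPM to 15.5 and 15.4 CPM (0.73 ± 0.10, adjusted p = 0.0001), and in crypts it read 5.11 and 5.27 CPM against 6.14 and 5.99 CPM, not past the test (adjusted p = 0.13).

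Asns, the asparagine synthetase whose promoter holds a CARE, went the other way. Its level fell from 53.3 and 55.6 CPM to 39.2 and 40.5 CPM in crypts and from 36.5 and 37.6 CPM to 26.4 and 27.0 CPM in IEC. The groups did not overlap, and the falls were 0.45 ± 0.057 (adjusted p = 7.7e-05) and 0.47 ± 0.062 (adjusted p = 6.8e-05). Chac1, a glutathione-degrading enzyme, was read from few counts in IEC, 43 and 28 in sham and 16 and 18 after hepatectomy, and its fall of 1.2 ± 0.32 (adjusted p = 0.0098) was lost without sham IEC replicate 1 (0.095) or hepatectomy IEC replicate 1 (0.062). In crypts it held 117 and 128 counts against 91 and 128. Ppp1r15a, the phosphatase subunit that ends the PERK signal, did not pass the test in crypts (0.28 ± 0.17) or in IEC (-0.22 ± 0.18).

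Of the 6 ERAD genes 1 rose and 1 fell in crypts (median log2 change -0.10), and 2 rose and none fell in IEC (median 0.16). Herpud1, a membrane scaffold of the ERAD complex, rose in IEC from 84.7 and 85.7 CPM to 198 and 182 CPM (1.16 ± 0.058, adjusted p = 1.7e-08). In crypts Herpud1 was at 116 and 108 CPM in sham and 103 and 108 CPM after hepatectomy (log2 change -0.09 ± 0.057, adjusted p = 0.23). Sham IEC thus lay below crypts, and IEC after hepatectomy lay above every crypt library. Edem1, a lectin-like factor that hands misfolded glycoproteins to ERAD, had the reverse pattern: it rose in crypts from 43.9 and 37.0 CPM to 74.9 and 88.0 CPM (1.01 ± 0.10, adjusted p = 1.2e-05), and in IEC it read 36.1 and 36.3 CPM against 37.8 and 45.7 CPM (0.21 ± 0.11, adjusted p = 0.16).

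Sel1l, the partner of the ligase Hrd1, rose in IEC from 89.8 and 93.4 CPM to 117 and 105 CPM (0.28 ± 0.059, adjusted p = 0.0024) and was at 70.2 and 69.5 CPM against 63.7 and 65.6 CPM in crypts (-0.11 ± 0.060, adjusted p = 0.17). Syvn1, which encodes Hrd1 itself, did not pass in crypts (0.08 ± 0.065) or IEC (-0.15 ± 0.067). Derl1, a membrane protein of the exit channel, fell in crypts from 119 and 118 CPM to 108 and 106 CPM (0.14 ± 0.046, adjusted p = 0.031) and was at 126 and 121 CPM against 135 CPM in each library in IEC (0.12 ± 0.047, adjusted p = 0.055). The crypt call of Derl1 was lost without any of the 4 crypt libraries (adjusted p 0.08 to 0.15). Derl3, its relative of secretory cells and also on the plasma cell list, was read from 8 to 30 counts a library and did not pass in crypts (-1.04 ± 0.43, adjusted p = 0.08) or IEC (-0.27 ± 0.43, adjusted p = 0.68).

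Of the 4 translocation genes 2 fell in crypts and 2 in IEC, and none rose. Ssr1, a subunit of the translocon-associated protein complex, fell by 0.23 ± 0.047 in crypts (216 and 227 CPM to 189 CPM in each library, adjusted p = 0.0025) and by 0.33 ± 0.048 in IEC (177 and 176 CPM to 144 and 137 CPM, adjusted p = 0.00016). Sec61a1, the pore of the channel, fell in IEC from 422 and 427 CPM to 350 and 343 CPM (0.29 ± 0.041, adjusted p = 0.00011) and read 497 and 489 CPM against 459 and 474 CPM in crypts (adjusted p = 0.15). Spcs1, of the signal peptidase, fell in crypts from 127 and 131 CPM to 117 and 112 CPM (0.17 ± 0.050, adjusted p = 0.018), a call lost without sham crypt replicate 2 (0.13) or hepatectomy crypt replicate 2 (0.1). It read 117 and 116 CPM against 116 and 122 CPM in IEC. Sec61b passed in neither (0.04 ± 0.055 in crypts, -0.10 ± 0.056 in IEC). Exons of Sec61a1, Spcs1, Hsp90b1 and Manf overlap those of other genes by 549, 252, 632 and 326 bases, which leaves the same doubt as for Eif2ak3.

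Goblet, Paneth and plasma cell genes fell beside the folding genes in crypts, while enteroendocrine markers were mixed. Of 16 goblet cell markers 15 fell in crypts (median log2 change -1.11), among them Clca1 (-2.28 ± 0.046) and Muc2 (-1.22 ± 0.044), and the summed level of the list went from 6015 and 6055 CPM to 2710 and 2775 CPM. In IEC 4 goblet markers rose, 4 fell (median 0.06), and the sum was 7340 to 7626 CPM in sham and 8908 to 9167 CPM after hepatectomy. Of 15 Paneth cell markers all fell in crypts (median -1.07; sum 1807 to 1996 CPM, then 889 to 896 CPM). In IEC 12 fell and 2 rose (median -0.64; sum 5414 to 5751 CPM, then 3508 to 3628 CPM). Examples are Ang4 (-2.00 ± 0.068) and Lyz1 (-1.41 ± 0.050) in crypts. Of 13 plasma and B cell markers tested, 9 fell and none rose in crypts (median -2.16; sum of 14 genes 105 to 110 CPM, then 23.9 to 27.5 CPM). The same counts held in IEC (median -1.10; 530 to 541 CPM, then 152 to 162 CPM), with Igha at -1.91 ± 0.061 and Igkc at -1.67 ± 0.059 in IEC. Enterocyte markers rose in 20 of 20 cases in crypts and in IEC (medians 1.23 and 1.2), with sums of 6869 to 6944 CPM against 15811 to 15824 CPM in crypts and of 36050 to 36500 CPM against 86976 to 90646 CPM in IEC. Proliferation markers fell in 14 of 15 cases in crypts and 15 of 15 in IEC, and stem cell markers in 5 and 8 of 12. None of the listed goblet, Paneth or enterocyte genes was at 0 in any intestinal group, and 1 plasma cell gene was at 0 in crypts after hepatectomy. The immunoglobulin genes have near-identical copies, so their single values are uncertain. Of 20 enteroendocrine markers 7 rose and 5 fell in crypts (median 0.13; sum 473 to 486 CPM, then 580 to 589 CPM). In IEC 7 rose and 3 fell (median 0.15; 868 to 887 CPM, then 1011 to 1013 CPM). Of 12 tuft cell markers 5 fell and none rose in crypts (median -0.31), and 5 rose and none fell in IEC (median 0.45). The part of these cell types in the fall of the folding genes was not tested.

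**Figure D3:**
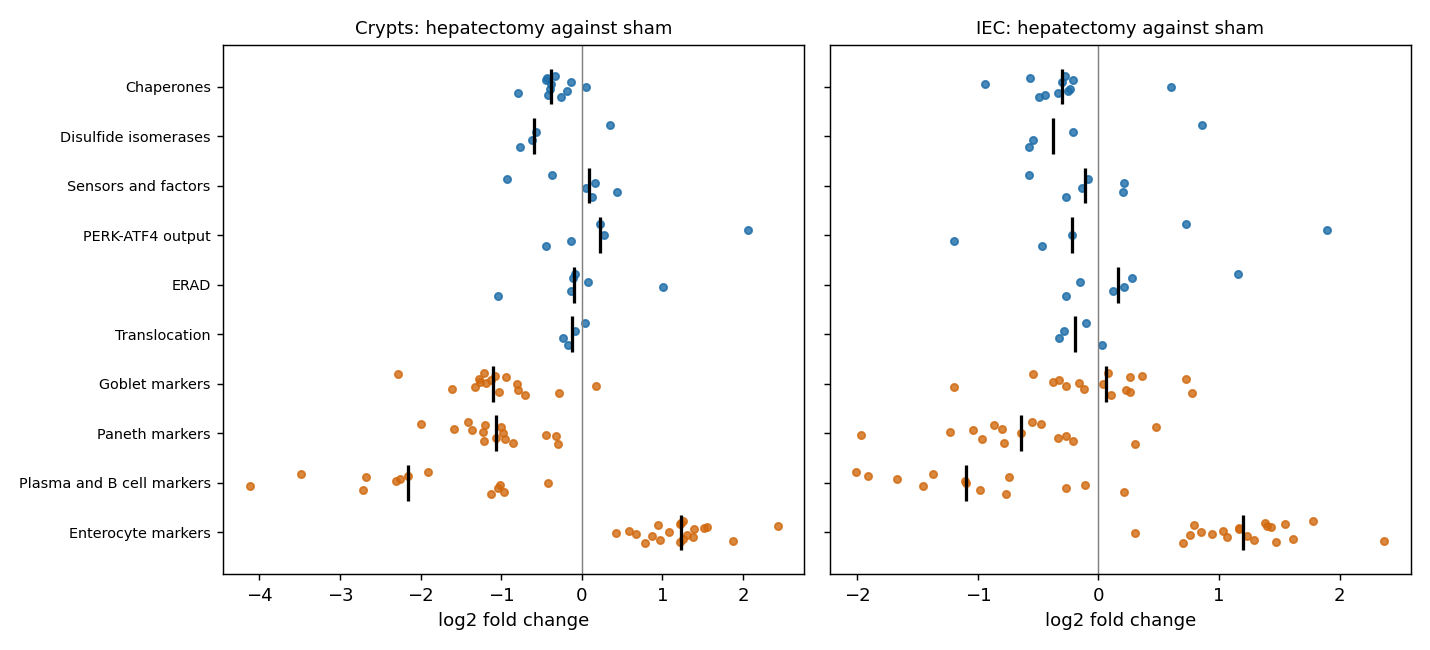
Log2 fold change of hepatectomy against sham for the roles of the 36 genes (blue) and for 4 lists of cell type markers (orange), with 1 point for each gene, a vertical line at the median of each list, crypts on the left and IEC on the right with their own scales. Chaperones have medians of -0.38 and -0.30, goblet markers of -1.11 in crypts and 0.06 in IEC.

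Other genes of the ER, 124 of 126 listed ones that were tested, gave 49 falls and 19 rises in crypts (median -0.12) and 36 falls and 25 rises in IEC (median -0.03). Of all genes tested, 18.3% fell and 19.2% rose in crypts, and 18.3% fell and 19.5% rose in IEC. The 8 genes of the professional secretory cell programme were among the other ER genes: 6 fell and none rose in crypts (median -1.04), and 3 fell and none rose in IEC (median -0.34). Agr2, a disulfide isomerase needed to make mucin, fell from 544 and 563 CPM to 186 and 189 CPM in crypts (1.56 ± 0.044, adjusted p = 2.7e-10) and from 397 and 382 CPM to 270 and 262 CPM in IEC (0.55 ± 0.044, adjusted p = 9.3e-07). Spdef, the goblet and Paneth cell factor that is also on the goblet list, fell by 1.19 ± 0.090 in crypts, and Creb3l4, a membrane-bound factor of secretory cells, by 1.39 ± 0.11. Dnajc10, an ER reductase with an Hsp40 domain, fell by 0.72 ± 0.058 and Spcs3, of the signal peptidase, by 0.57 ± 0.048. Creb3l3, a membrane-bound factor of liver and gut that is cut like ATF6, rose from 68.7 and 61.8 CPM to 187 CPM in each crypt library (1.52 ± 0.054, adjusted p = 1.3e-09) and from 187 and 182 CPM to 606 and 594 CPM in IEC (1.70 ± 0.053, adjusted p = 2.8e-10). In IEC, Tmbim6, an ER membrane protein that dampens cell death, rose by 0.57 ± 0.046, Mcfd2, a cargo receptor subunit, by 0.61 ± 0.050, and the ATF4 target Slc3a2, an amino acid transporter chain, by 0.76 ± 0.047. Another ATF4 target, the arginine transporter Slc7a1, fell by 0.76 ± 0.062. Of 26 further ATF4 targets tested, 7 rose and 11 fell in crypts and 6 rose and 10 fell in IEC, so rises and falls were mixed as they were for Trib3, Ddit3, Chac1 and Asns.

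Whether hepatectomy acted alike in the fractions was tested with the interaction term of the same fit, as the log2 change in crypts minus that in IEC. It passed for 15 of the 36 genes, 5 with a more positive change in crypts (9.15% of all genes had one) and 10 with a more negative one (10.1% of all genes). The change in crypts was more negative for Herpud1 (-1.25 ± 0.081, adjusted p = 1.1e-06), Ern2 (-0.84 ± 0.13, adjusted p = 0.00095), Dnajb9 (-0.54 ± 0.11), P4hb (-0.51 ± 0.051), Sdf2l1 (-0.46 ± 0.072), Sel1l (-0.39 ± 0.084) and Pdia3 (-0.36 ± 0.070). It was more positive for Edem1 (0.81 ± 0.15, adjusted p = 0.0027), Hyou1 (0.56 ± 0.099, adjusted p = 0.002) and Atf4 (0.40 ± 0.090, adjusted p = 0.0091). Of the called genes Herpud1 alone differed at least 2-fold, as 3.91% of all genes did. The term did not pass for Trib3 (0.16 ± 0.22, adjusted p = 0.67), Asns (0.02 ± 0.084, adjusted p = 0.9) or Hspa5 (-0.05 ± 0.061, adjusted p = 0.64). Of the other ER genes, Agr2 (-1.01 ± 0.062), the stress gene Ddit4 (-1.16 ± 0.13) and Slc7a1 (0.82 ± 0.084) had the smallest adjusted p. The goblet list passed with a more negative change in crypts in 14 of 16 cases and the Paneth list in 10 of 15, with 1 more positive. The count of 15 fell to 10 without sham crypt replicate 1 or replicate 2. The term of Ddit3 (-0.51 ± 0.15, adjusted p = 0.032) was lost with any of 7 of the 8 libraries left out (adjusted p 0.06 to 0.12), that of Manf in 6 cases (0.05 to 0.11) and those of Calr, Derl1 and Sec61a1 in 4 cases each (0.052 to 0.12), and that of Sel1l without sham crypt replicate 1 (0.057).

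More of the genes were higher in crypts than in IEC than were lower. In sham mice 21 of the 36 genes were higher in crypts (58.3%, where 19.3% of all genes were) and 4 were lower (19.3% of all genes), with a median log2 difference of 0.21 against 0.02 over all genes. Chaperones were higher in 8 of 11 cases, disulfide isomerases in 3 of 4, and translocation genes in 3 of 4. Summed levels did not all follow: the chaperones summed to 2852 and 2898 CPM in sham crypts against 2349 and 2363 CPM in sham IEC, and the disulfide isomerases, with P4hb among them, to 2637 and 2579 CPM against 3048 and 3062 CPM. The differences were again small, with 2 genes at least 2-fold apart (9.04% of all genes): Trib3 was lower in crypts by 2.13 ± 0.18 and Chac1 was higher by 1.21 ± 0.24. P4hb (-0.67 ± 0.036), Ddit3 (-0.84 ± 0.11) and Sel1l (-0.39 ± 0.060) were the other genes lower in crypts. After hepatectomy 19 were higher in crypts (26.3% of all genes) and 8 were lower (25.6% of all genes), with a median of 0.22 against 0.01. Of these, 4 were at least 2-fold apart (15.2% of all genes): Trib3, Ddit3, P4hb and Chac1. Herpud1 was higher in crypts of sham mice (0.40 ± 0.058) and lower in crypts after hepatectomy (-0.85 ± 0.057), and Ern2 likewise turned from 0.50 ± 0.091 to -0.34 ± 0.095, the latter not past the test without hepatectomy IEC replicate 1 (adjusted p = 0.12). These comparisons share libraries with the hepatectomy contrasts. Of the other ER genes named by rule, Creb3l3 (-1.50 ± 0.054), its relative Creb3l2 (-1.98 ± 0.10) and Slc3a2 (-0.86 ± 0.048) were lower in sham crypts than in sham IEC, and Creb3l3 (-1.68 ± 0.052), Slc3a2 (-1.24 ± 0.048) and Tmbim6 (-1.03 ± 0.046) were lower in crypts after hepatectomy. Calls for Dnajb11, Eif2ak3, Ern1, Spcs1 and Xbp1 in sham were lost when sham libraries were left out (adjusted p up to 0.082, 0.19, 0.092, 0.23 and 0.22).

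Per kilobase of exon, the order of mean levels in sham crypts ran from P4hb (473 CPM per kb) through Pdia3 (245), Calr (198), Hspa5 (150), Hsp90b1 (132), Sec61b (109) and Sdf2l1 (108) down to Trib3 (0.611) and Derl3 (0.320). The sensors lay low, with Ern2 at 8.04, Atf6 at 3, Ern1 at 2.40 and Eif2ak3 at 1.69 CPM per kb, while Xbp1 (75.9) and Atf4 (50.1) were among the abundant genes. In IEC after hepatectomy the level of P4hb reached 1365 CPM per kb and that of Herpud1 81.5, against 36.5 in sham IEC. Neighbours such as Sec61b and Sdf2l1 in sham crypts are too close to be ordered on lengths that take all annotated exons of a gene.

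In the liver-labelled libraries, most chaperones and disulfide isomerases were lower at day 10 than at day 0, and the outputs of the PERK-ATF4 arm were mixed. Of the 36 genes, 20 were lower at day 10 (55.6%, where 18.8% of all genes were) and 4 were higher (11.1%, where 24.7% of all genes were). The median was -0.52 against 0.10 over all genes, and 6 changed at least 2-fold (20.8% of all genes). The lower ones included 9 of 11 chaperones, 3 of 4 disulfide isomerases and all 4 translocation genes, and the higher ones were Ddit3, Ppp1r15a, Chac1 and Edem1. Of the 5 outputs 3 rose, Asns fell and Trib3 did not pass (0.62 ± 0.28, adjusted p = 0.091), and their summed level was 106 to 153 CPM at day 0 and 91.7 to 105 CPM at day 10. Of 28 further ATF4 targets 5 rose and 9 fell (median -0.11). Hspa5 read 661, 486 and 495 CPM at day 0 and 348, 283 and 403 CPM at day 10 (fall of 0.67 ± 0.20, adjusted p = 0.019). Pdia3 read 1093, 799 and 799 CPM and then 439, 298 and 400 CPM (fall of 1.24 ± 0.21, adjusted p = 0.0019). Sdf2l1 read 126, 97.3 and 86.1 CPM and then 45.7, 41.3 and 37.0 CPM (fall of 1.32 ± 0.16, adjusted p = 0.00031). Every day 10 library was below every day 0 library for these genes. The call of Hspa5 was lost without day 10 replicate 2 (0.062). Under the stricter filter 12 falls and 4 rises were left, with adjusted p of 0.068 for Hspa5, 0.086 for Calr, 0.14 for Canx, 0.067 for Dnajc3, 0.06 for Sec61a1, 0.054 for Sec61b and 0.15 for Spcs1, so 3 of the 4 translocation calls were lost. With only these days in the fit, 21 genes fell and 3 rose, the median of all genes moved from 0.10 to -0.08, and over all genes 2136 rose and 3389 fell in place of 4129 and 3146.

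Ddit3 went from 6.80, 4.68 and 5.21 CPM to 11.3, 14.5 and 14.6 CPM (1.27 ± 0.20, adjusted p = 0.0014). Ppp1r15a went from 20.8, 15.7 and 13.3 CPM to 32.6, 25.4 and 37.4 CPM (0.94 ± 0.20, adjusted p = 0.0049). Chac1, read from 28 to 115 counts a library, rose by 1.42 ± 0.35 (adjusted p = 0.0093). For these genes the days did not overlap. Asns fell from 123, 89.0 and 85.7 CPM to 56.4, 46.4 and 44.9 CPM (1.01 ± 0.18, adjusted p = 0.0023), so the direction of Asns was again opposite to that of Ddit3. Ern2 fell from 49.3, 40.0 and 40.9 CPM to 26.4, 24.6 and 15.3 CPM (0.97 ± 0.26, adjusted p = 0.012), and Ern1 did not pass (0.20 ± 0.25, adjusted p = 0.53). Xbp1 fell by 0.53 ± 0.17 (adjusted p = 0.024, lost at 0.076 without day 10 replicate 2), and Atf4 did not pass (-0.09 ± 0.15). The rise of Edem1 (0.55 ± 0.19, adjusted p = 0.034) was lost without any library but day 10 replicate 3 (adjusted p 0.063 to 0.24), and the falls of Canx and Spcs1 were lost in 4 and 6 of the 9 cases (adjusted p up to 0.085 and 0.07), and that of Dnajc3 without day 0 replicate 2 (0.05). Of 125 other ER genes tested, 49 fell and 13 rose (median -0.35), where 18.8% of all genes fell and 24.7% rose. Among the 125 were Wars, a tRNA synthetase on the ATF4 list (-1.74 ± 0.16, adjusted p = 3.9e-05), the stress factor Atf3 (1.88 ± 0.22, adjusted p = 0.00025) and the isomerase Pdia5 (-1.03 ± 0.15, adjusted p = 0.00076).

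**Figure D4:**
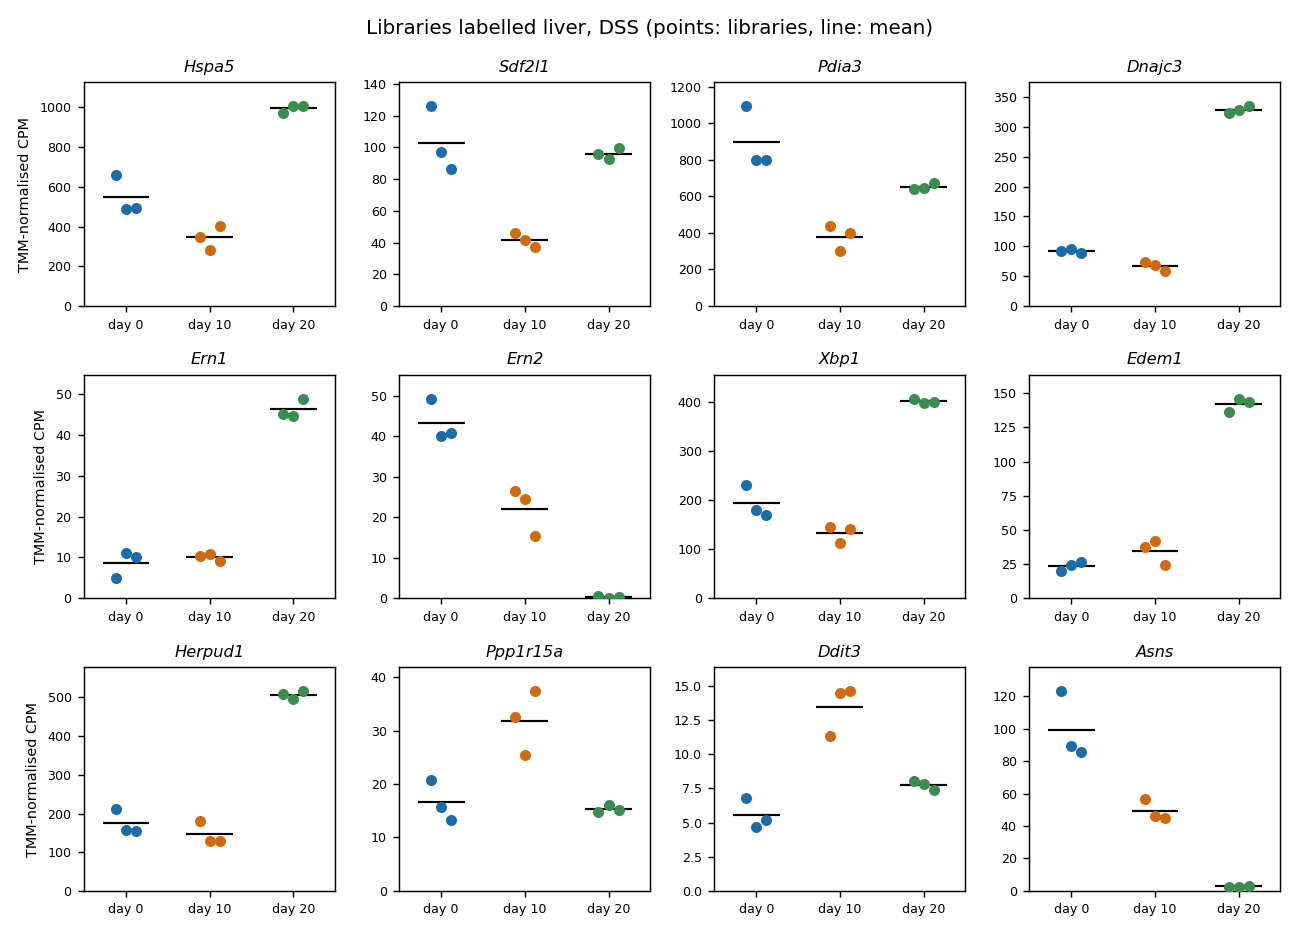
TMM-normalised CPM of 12 of the genes in each of the 9 liver-labelled libraries, with 1 point for each library, a line at the mean of each day and linear axes that start at 0. Sdf2l1 and Pdia3 are lowest at day 10, Ddit3 and Ppp1r15a are highest there, and Ern2 and Asns are near 0 at day 20.

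Cell type markers also differed between day 0 and day 10, not all in the direction of the folding genes, and single libraries stood apart. Goblet marker sums were 3299 to 3963 CPM at day 0 and 5467, 6107 and 2074 CPM at day 10. Paneth sums were 45284 to 61449 CPM and then 110542, 121063 and 8479 CPM, and pancreatic acinar sums 296 to 407 CPM and then 2402, 2514 and 177 CPM, so day 10 replicate 3 differed from the others in these sums. Tuft cell markers were higher at day 10 in 10 of 10 cases (median log2 change 1.81), enterocyte markers in 15 of 20 (median 1.39) and hepatocyte markers in 12 of 15 (median 0.99), with none lower. Enteroendocrine markers were lower in 11 of 20 cases (median -0.95), with none higher, and proliferation markers were lower in 12 of 15 and higher in 1. The part of these changes in the folding genes was not tested. Day 0 replicate 1 stood apart from the other day 0 libraries: Hyou1 was 33.7 CPM in it against 89.1 and 87.5 CPM, Sel1l 29.3 against 61.0 and 61.4 CPM, Ern1 4.89 against 11.2 and 10.1 CPM, and Eif2ak3 3.67 against 9.66 and 11.9 CPM. Its deviations over the 36 genes fell with exon length (Spearman's rho -0.62, a description over genes of 1 library), with exceptions such as Ssr1, the longest at 10431 bases, at 1.2 times the mean of the other day 0 libraries and Sec61a1 at 1.3 times. Without it, 20 of the 36 genes fell and 3 rose.

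At day 20, where hepatocyte markers were high, most of the genes stood at another level. Against day 0, 20 of the 36 genes were higher (33.3% of all genes were) and 4 were lower (38.1% of all genes), with a median of 0.53 against -0.16, and 15 differed at least 2-fold (54.9% of all genes). Against day 10, 30 were higher (30.8% of all genes) and 6 lower (40.3% of all genes), with a median of 1.22 against -0.21, and 25 differed at least 2-fold (54.6% of all genes). These comparisons share the day 20 libraries, and each shares a day with the comparison of day 10 and day 0. They also rest on the scaling. TMM factors were 0.651 to 0.655 at day 20, 1.11 to 1.3 at day 0 and 1.03 to 1.64 at day 10. Before scaling, Hspa5 had 27015, 22348 and 19284 counts at day 0 and 26435, 26013 and 27936 at day 20. Library totals were 36717028, 36247451 and 29874354, then 41475231, 39609862 and 42669857. Fits without such scaling were not run. All 6 ERAD genes were higher at day 20 than at day 0, led by Edem1 (20.0, 24.2 and 26.7 CPM against 136, 146 and 144 CPM; 2.59 ± 0.20, adjusted p = 6.9e-08). Herpud1 was at 211, 158 and 154 CPM and then 508, 497 and 516 CPM, and Dnajc3 at 92.0, 95.0 and 88.2 CPM and then 324, 328 and 335 CPM, with no overlap. P4hb, at 1071, 841 and 819 CPM at day 0, was at 2222, 2175 and 2192 CPM at day 20.

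The order of the 2 IRE1 genes was reversed at day 20. Ern1 was at 4.89, 11.2 and 10.1 CPM at day 0 and 45.2, 44.6 and 48.8 CPM at day 20 (2.40 ± 0.25, adjusted p = 1.8e-06). Ern2 had 2013, 1839 and 1593 counts at day 0 and 15, 3 and 6 counts at day 20, a fitted change of -7.17 ± 0.38 that rests on those few counts. The epithelial IRE1 was thus nearly absent where hepatocyte markers were high. Asns was at 2.65, 2.32 and 3.28 CPM at day 20 against 85.7 to 123 CPM at day 0 (-5.17 ± 0.22, adjusted p = 2.8e-10). Of the 28 further ATF4 targets 8 were higher and 16 lower than at day 0. The 3 other ER genes with the smallest adjusted p were all on that list, with Aldh18a1 at -6.01 ± 0.18, Phgdh at -6.74 ± 0.24 and Pck2 at -4.41 ± 0.19 (against day 10, -5.92 ± 0.18, -5.61 ± 0.23 and -3.88 ± 0.19). Trib3 was higher by 3.91 ± 0.28 (0.796 to 1.48 CPM against 15.2 to 17.8 CPM) and Chac1 by 2.90 ± 0.35, so the outputs of the arm were again mixed. Of the translocation genes 1 of 4 was lower, Ssr1 (-0.46 ± 0.16, lost without any single day 20 library, adjusted p 0.051 to 0.09), and none was higher. Calls of Calr, Ddit3, Manf, Pdia4, Derl3 and Atf4 against day 0 were lost without single libraries (adjusted p up to 0.15, 0.27, 0.31, 0.08, 0.057 and 0.053). Against day 10 the same held for Ssr1, Atf4, Canx, Eif2ak3, Sec61a1 and Spcs1 (up to 0.13, 0.15, 0.072, 0.13, 0.12 and 0.11). The count of 24 calls against day 0 was 18 without day 20 replicate 3.

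**Figure D5:**
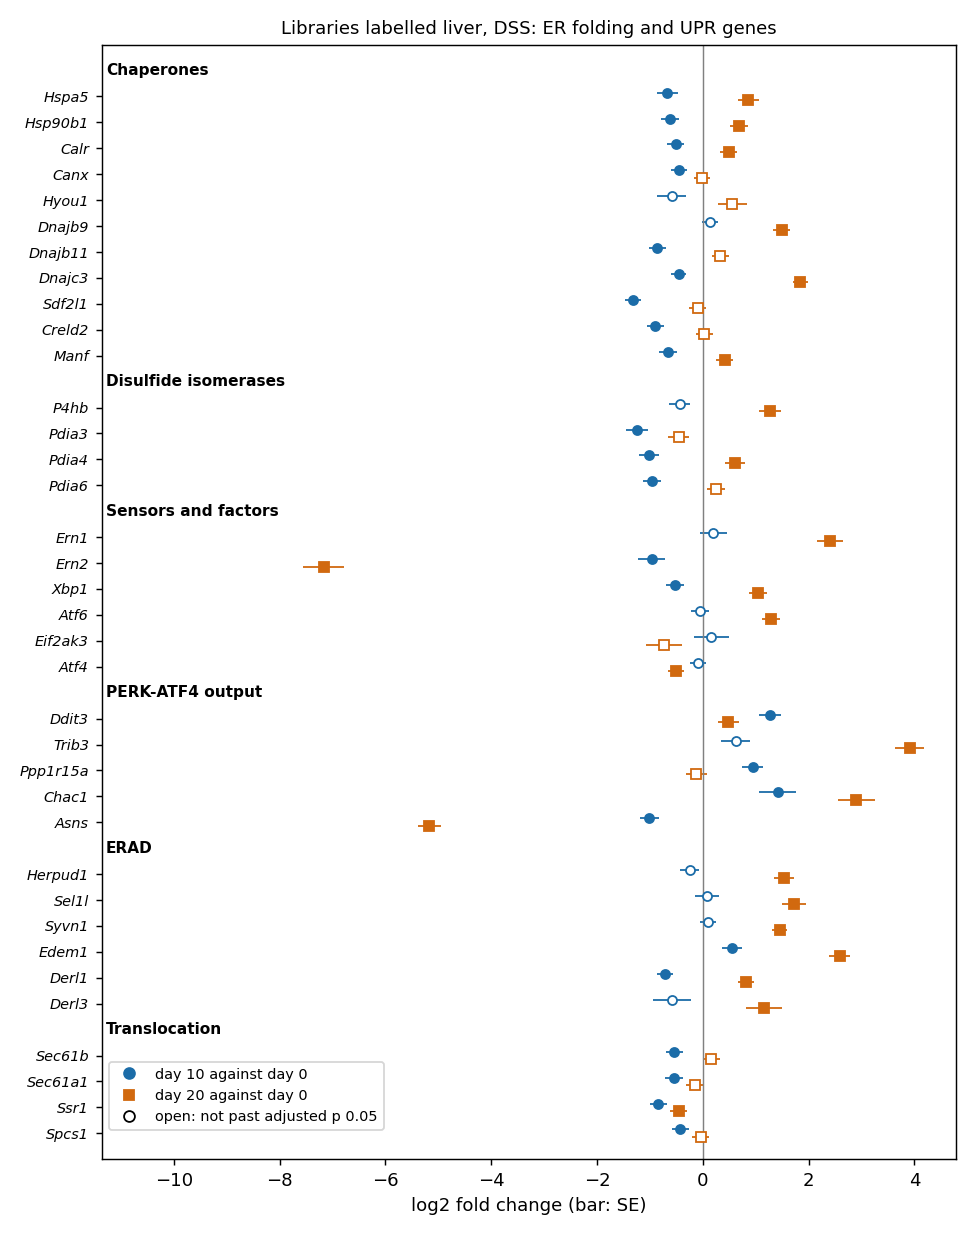
Log2 fold change of day 10 against day 0 (circles) and of day 20 against day 0 (squares) in the liver-labelled libraries for the 36 genes, with bars for the SE and filled symbols past an adjusted p of 0.05. The comparisons share the day 0 libraries, and Ern2 (-7.17) and Asns (-5.17) at day 20 lie far to the left.

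Set beside the promoters, the 9 genes with an ERSE gave 7 falls and no rise after hepatectomy in crypts (median -0.42) and in IEC (median -0.28). The 21 genes with a window but no ERSE gave 8 falls and 5 rises in crypts (median -0.09) and 9 falls and 7 rises in IEC (median -0.10). Over all genes tested, 18.3% fell and 19.2% rose in crypts, and 18.3% fell and 19.5% rose in IEC. At day 10 against day 0 the 9 genes gave 7 falls and no rise (median -0.58). The 21 gave 9 falls and 4 rises (median -0.25), where 18.8% of all genes fell and 24.7% rose. At day 20 against day 10 all 9 were higher (median 1.31). Of the 21, 16 were higher and 5 lower (median 1.22), where 30.8% of all genes were higher and 40.3% were lower. The genes with an ERSE that did not pass after hepatectomy were the ERAD genes Syvn1 and Derl3. The chaperones Sdf2l1 and Dnajb11 and the isomerases Pdia3 and Pdia4 fell in crypts and IEC with no ERSE in their windows, and 6 of the 36 genes had no window, so ERSE and role overlap and only counts are given. Near matches were counted as absent. Sequence after the annotated start was found in a GENCODE transcript for 27 of the 30 genes. For Pdia4, Dnajc3 and Trib3 it was not, so their windows are less certain. Herpud1, with its ERSE-II and CARE, did not follow the ERSE genes: it rose in IEC by 1.16 while each of the 7 called ERSE genes fell there. The CARE genes Asns and Chac1 fell in IEC, by 0.47 and 1.2, in contrast to the rise of Herpud1.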

How the data were processed

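RNA-seq libraries of mouse small intestine (8) and of material labelled liver (9) were analysed as deposited. For the intestine the authors deposited expected counts per gene, of which 36.7% were not whole, and these were rounded. For the liver-labelled libraries the authors deposited raw counts per gene. Between 3.93% and 22.1% of the counts in a library had identifiers with no matching gene symbol. These counts were kept in the fit and in the library sizes. Reads were aligned with STAR and handled in Partek on mm10, per the submitters' processing notes. For the strand setting, and for the counting program of the liver-labelled files, details are not given in the sources used here. Each of the 2 kinds of file was fitted separately with edgeR 4.0.16 in R 4.3.3 (genes kept by filterByExpr at 10 counts, or 15 in total, TMM scaling, quasi-likelihood F test, Benjamini-Hochberg adjustment over all genes tested, calls at 0.05), with all groups of a kind in 1 fit. Total counts per library were 12742629 to 43580050. DESeq2 1.42.0, other scaling, all genes without a filter, a filter that asked for 1 CPM in every library of a group and a mean of 5 CPM in it, a replicate block, smaller fits and leaving out each library were the alternatives. On simulated data with 200 changed genes, the crypt layout found 67.2% of the changes that were 1.5-fold, 95.5% when 2-fold and 100% when 4-fold, and the layout of day 10 against day 0 recovered 10.4%, 43.3% and 93.9%. In the crypt data many more genes were called, 3493 higher and 3329 lower. The share of real changes found in crypts is therefore not known. The genes and lists were chosen with earlier results of these data known. Library values are given for up to 4 genes a role with the largest called change after hepatectomy, for fixed sensor genes, and for further genes chosen after their values were seen. Of the other ER genes, those with the smallest adjusted p were named, 6 for each hepatectomy comparison and 3 for the others. Promoter windows are RefSeq sequences (GRCm38.p6), and exon lengths and overlaps come from GENCODE. Figures were drawn with Python 3.11.15 and matplotlib 3.10.9. Comparisons across the 2 kinds of file were not made.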

Additional observations from a re-analysis of the deposited data

Results flagged for a closer look

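For 15 of the 36 genes the effect of hepatectomy differed between crypts and IEC, by the interaction term of edgeR's fit (adjusted p under 0.05), 5 with a more positive change in crypts (9.15% of all genes) and 10 with a more negative one (10.1%). The calls of 6 of them, Calr, Ddit3, Derl1, Manf, Sec61a1 and Sel1l, were lost under some alternative. The log2 change in crypts minus that in IEC was -1.25 for Herpud1, -0.84 for Ern2, -0.54 for Dnajb9, -0.51 for P4hb, -0.51 for Ddit3, -0.46 for Sdf2l1, -0.39 for Sel1l, -0.36 for Pdia3, -0.27 for Derl1 and -0.24 for Calr. It was 0.81 for Edem1, 0.56 for Hyou1, 0.40 for Atf4, 0.23 for Manf and 0.21 for Sec61a1. For Herpud1, Dnajb9, Ddit3 and Sel1l the hepatectomy effect passed in IEC as a rise and did not pass in crypts, and for Edem1 it passed in crypts as a rise and did not pass in IEC. For Calr, Sdf2l1, Pdia3, Hyou1 and Manf it was a fall in crypts and in IEC that differed in size, and for P4hb a rise that differed in size.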

How the results depend on the processing

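No call of the 36 genes turned its direction under the alternatives that were run. All of these scaled the libraries by TMM, RLE or DESeq2 size factors, so they do not test the day 20 differences without such scaling. Asking also for a change of at least 2-fold left 2 of the 24 calls in crypts, 3 of 26 in IEC, 1 of 15 for the difference of the effects, 2 of 25 and 4 of 27 for crypts against IEC in sham and after hepatectomy, 6 of 24 for day 10 against day 0, 15 of 24 for day 20 against day 0 and 25 of 36 for day 20 against day 10. The stricter filter left 16 calls for day 10 against day 0. Leaving out each library in turn gave 17 to 24 calls in crypts, 24 to 26 in IEC, 10 to 14 for the difference, 20 to 27 and 27 to 28 for crypts against IEC, and 19 to 26, 18 to 27 and 30 to 36 for the days. Why these counts moved was not tested, and each of these fits also had fewer libraries. DESeq2 gave 20, 26, 14, 22, 27, 25, 25 and 36 calls in the same order. Without a filter the median over all genes moved from 0.10 to 0.46 for day 10 against day 0 and from 0.01 to 0.17 in crypts. Same-numbered libraries deviated together by correlations of -0.016 to 0.028 in the intestine and -0.03 to 0.042 over the days, so the numbers were not taken to pair libraries; with the replicate block the calls were 24, 26, 15, 24, 27, 24, 23 and 35. With 3 libraries a day and 200 changed genes, 10.4% of simulated 1.5-fold changes were called for day 10 against day 0. In the data 4129 genes were called higher and 3146 lower, which makes the adjustment less strict than in the simulation. The share of real 1.5-fold changes that was found is therefore not known.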
